A study of Mus musculus with 12 samples.

Results

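A set of 9 transcription factor genes of the embryonic cerebral cortex (Emx1, Emx2, Dmrta2, Eomes, Neurod2, Neurod6, Tbr1, Fezf2 and Bcl11b) was followed through RNA immunoprecipitation sequencing of the reader proteins Ythdf1 and Ythdf2. The rule for the set is a list of names with known roles and uses no measured value, though the list was drawn up with earlier results of these data known. All 9 of the 9 genes passed the filter on low counts, out of 52550 genes listed and 20278 tested. Tissue came from wild-type C57BL/6 mice, either the cortex at embryonic day 12.5 or the retina at postnatal day 0, and was dissociated before lysis. From each tissue, RNA was taken as input, after immunoprecipitation with an antibody to Ythdf1 (Proteintech), and after immunoprecipitation with an antibody to Ythdf2 (Proteintech). Each of these 6 groups had 2 libraries, made with a stranded mRNA protocol from 100 ng of RNA. No precipitation with an unrelated antibody was among the libraries, so a higher value in an immunoprecipitate (IP) than in input measures recovery in that precipitate and was not set against recovery on beads alone. Nothing in the sample descriptions says that the replicates came from separate animals or pools, so every p-value measures the spread between these libraries, which may be technical. Age and tissue changed together between the cortex and retina groups, and their parts in a difference between them cannot be told apart.

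Ythdf1 and Ythdf2 are cytoplasmic proteins that bind RNA carrying N6-methyladenosine (m6A), a methyl mark placed on adenosines within a short motif, often near the stop codon and in the 3′ untranslated region. Ythdf2 is known for promoting decay of the transcripts it binds and Ythdf1 for a role in their translation. In the developing cortex, Emx1, Emx2 and Dmrta2 are expressed in dorsal progenitors and set regional identity, Eomes (Tbr2) marks intermediate progenitors, and Neurod2 and Neurod6 are basic helix-loop-helix factors of newborn excitatory neurons. Tbr1, Fezf2 and Bcl11b (Ctip2) act in early deep-layer projection neurons, where Tbr1 is associated with corticothalamic identity and Fezf2 and Bcl11b with subcerebral identity.

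Total counts ranged from 19530226 to 40515980 per library, and counts on protein-coding genes from 1676910 to 13621485. The library labelled cortex input replicate 1 did not look like embryonic cortex. Its 14 mature brain markers summed to 23872.5 CPM of protein-coding counts (each count scaled to a common total over protein-coding genes), against 200.859 in cortex input replicate 2 and 264.889 to 315.077 in the 4 cortex IPs, and its progenitor markers summed to 235.552 against 4433.58 to 6039.65 in the other 5 cortex libraries. It correlated with the other cortex input at a Spearman coefficient of 0.627 across 15323 protein-coding genes, whereas the other replicate pairs lay at 0.921 to 0.978. It had 0 counts for Emx1 and Dmrta2 and 7 to 126 counts for the rest of the 9 factors, at the lowest protein-coding total, 1676910. On CPM of protein-coding counts all 9 were lower in it than in the other 5 cortex libraries, to unlike degrees. Bcl11b, Neurod6 and Neurod2 were at 75.1, 62.0 and 50.7, where their lowest values in those 5 were 196, 109 and 112. Emx2, Fezf2, Tbr1 and Eomes were at 4.17 to 25.6, against 140.7 or more. Values below therefore come from a fit on the other 11 libraries, in which cortex input is 1 library assumed to vary like the other groups, and results with all 12 libraries are printed beside the calls. Retina markers summed to 39.6154 to 163.639 CPM of protein-coding counts in those 5 cortex libraries and to 2606.9 to 3257.37 in the 6 retina libraries. Blood, vessel and meninges markers stood at 4321.77 in cortex Ythdf1 IP replicate 2 and at 1343.94 to 2237.68 in the other 4 cortex libraries.

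The consensus that m6A methylation favours includes the letters GGACT, so this motif was located in the longest coding transcript of each gene (GENCODE M21, build GRCm38, sense strand only). All 9 transcripts held it at least once, as did 92.8% of the 14723 protein-coding transcripts of tested genes. The match nearest the stop codon is shown for the 5 genes on which the cortex results turn, with 12 bases either side and GGACT in capitals: Emx2 and Neurod2 at the low end of the IP values, Emx1 and Dmrta2 at the high end, and Fezf2, which held a single match.

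Emx2: aaaaaaggcacaGGACTtttaattttgca
Neurod2: gcttgcctctggGGACTcgccttctctct
Emx1: ggggcccatgctGGACTctggccactcct
Dmrta2: agttggctttagGGACTtgcttgggtggg
Fezf2: cttcaactacctGGACTccaccgcttacc

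These windows lie in exons at chr19:59464521-59464549 on the plus strand for Emx2, chr11:98326978-98327006 on the minus strand for Neurod2, chr6:85204135-85204163 on the plus strand for Emx1, chr4:109982752-109982780 on the plus strand for Dmrta2 and chr14:12344660-12344688 on the minus strand for Fezf2. The Emx1, Dmrta2, Neurod2 and Emx2 matches were in the 3′ untranslated region, 71, 111, 191 and 486 bases past the end of the coding sequence. The only Fezf2 match was in the coding sequence, 858 bases before its end. Per kilobase, matches ranged from 0.412 in Fezf2 to 2.06 in Emx2 and 2.4 in Dmrta2, against a median of 1.05 over the 14723 transcripts, of which 10.1% had a density at or above that of Emx2 and 5.45% one at or above that of Dmrta2. A match is a description of the sequence and does not show a methylated or bound site.

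Per unit of length, the 9 factors stood in a different order in the cortex IPs than in cortex input replicate 2. By the deposited FPKM, which divide by gene length, Emx2 ranked 1 of the 9 in that input at 68.4 and made up 25.8% of their summed FPKM. Its share was 9.54% and 16.1% after Ythdf1 precipitation, and 11.5% and 10.03% after Ythdf2 precipitation. Its rank there was 7 and 2 with Ythdf1 and 5 in both Ythdf2 IPs. Fezf2, the zinc finger factor of subcerebral projection neurons, ranked 5 in input, with 10.9% of the sum, and 1, 1, 3 and 1 in the IPs, with 19.4%, 22.6%, 13.99% and 18.8%. Emx1 was the lowest of the 9 in each of these 5 libraries, at 1.77% in input and 4.28% to 5.52% in the IPs. Eomes and Neurod6, ranked 2 and 3 in input at 41.2 and 41.1 FPKM, did not separate from each other there, and Neurod2 followed at 39.4. Shares within a library do not depend on how libraries are scaled to each other. They do depend on the other genes of the sum, so a smaller Emx2 share makes the other shares larger. Against input, Fezf2 had log2 values of 0.18 with Ythdf1 and 0.08 with Ythdf2, neither called by edgeR.

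**Figure D1:**
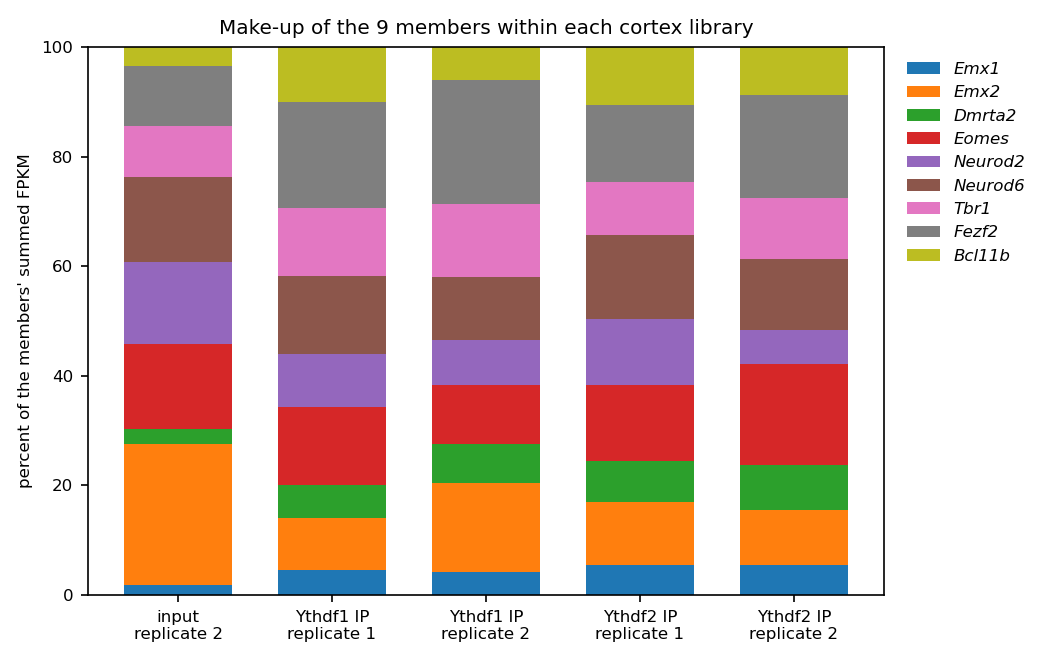
Stacked bars give the percent of the summed FPKM of the 9 genes taken by each gene (y axis) in cortex input replicate 2 and the 4 cortex IPs (x axis). The Emx2 segment was 25.8% in input and 9.54% to 16.1% in the IPs, and the Fezf2 segment 10.9% in input and 13.99% to 22.6% in the IPs.

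Emx2, a homeobox gene needed for cortical area patterning and hippocampal growth, was the one factor of the 9 that passed the test in the cortex IPs, and it was lower there than in input. It was counted at 93.2 normalised CPM (all CPM from here on use totals scaled by TMM factors) in cortex input replicate 2. The Ythdf1 IPs held 22.3 and 31.1 CPM, and the Ythdf2 IPs 26.3 and 27.2 CPM. All 4 precipitates thus lay below the input, a single library, and the antibodies' ranges overlapped. The share of all genes with all 4 IPs on one side of that library is not given here. In the Ythdf1 IPs Emx2 was 3.50-fold lower than in input (log2 −1.81, SE 0.44, edgeR adjusted p = 0.0361). In the Ythdf2 IPs it was 3.49-fold lower (log2 −1.80, SE 0.43, edgeR adjusted p = 0.0227). Over all genes 2.17% were called lower and 1.55% higher with Ythdf1, and 5% lower and 2.48% higher with Ythdf2, so 1 of 9 is not set apart from those shares by this count. Both comparisons use the same input library, so they are not independent of each other. With all 12 libraries the log2 values were −0.88 (adjusted p = 0.732) and −0.89 (adjusted p = 0.671), neither called, and with cortex input replicate 1 in place of replicate 2 they turned to 2.13 and 2.21.

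The Emx2 call in the Ythdf1 IPs was near the threshold. Leaving out cortex Ythdf1 IP replicate 1 gave an adjusted p of 0.200 in edgeR, and leaving out replicate 2 gave 0.0941. Without either library of a retina IP it lay between 0.0699 and 0.0709, and without cortex Ythdf2 IP replicate 2 at 0.0535. The log2 value stayed between −2.07 and −1.65 in all 10 of these leave-one-out fits, and it was −2.07 without cortex Ythdf1 IP replicate 2, the library with the higher blood and vessel markers. In the Ythdf2 IPs the call was lost without replicate 1 (adjusted p = 0.0860) or replicate 2 (0.113) of that group and held in the other 8 fits. Over all 10 the log2 value lay between −1.81 and −1.77. For either antibody, no fit left out cortex input replicate 2, the only input library, so the part of that library was not tested. Leaving out a library outside the groups compared could move the log2 value little, so those fits mainly bear on the call.

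Ratios of counts between 2 genes of 1 library do not depend on scaling and are given as a description. They reuse the counts and the single input library behind the values above, so they are no separate test of Emx2. Emx2 and its paralog Emx1 stood at 19.99 to 1 in cortex input replicate 2, at 2.85 and 5.12 to 1 with Ythdf1, and at 2.86 and 2.53 to 1 with Ythdf2. Emx2 to Fezf2 stood at 2.34 in input and at 0.485 to 0.813 in the IPs. Against Emx2os, the antisense RNA that shares 264 bases with the 5′ end of the Emx2 gene (chr19:59458372-59458635), the ratio of Emx2 was 19.3 in input, 8.22 and 6.26 with Ythdf1 and 6.22 and 5.24 with Ythdf2. The strand setting of the counting is not given in the sources used here, so reads within the shared 264 bases could belong to either gene. Eomes shares 574 bases with the antisense gene Gm33460, which reached at most 12 counts. Dmrta2os, on the other strand, lies 239 bases from Dmrta2 without overlap and reached at most 221.

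**Figure D2:**
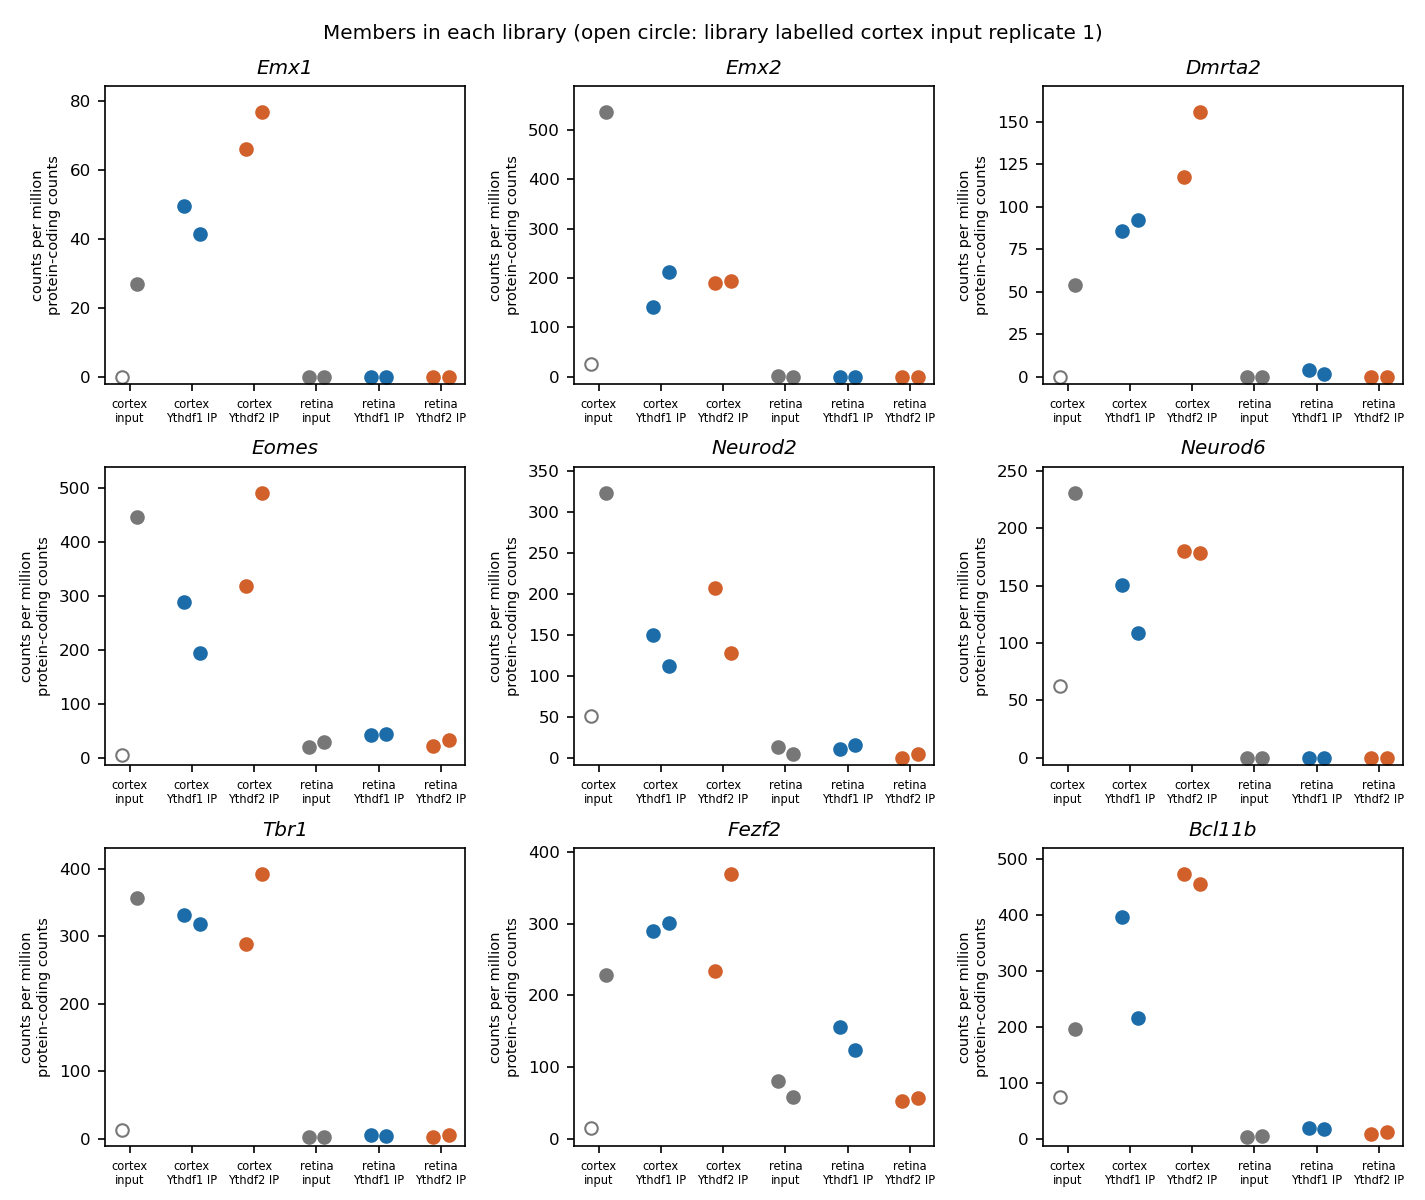
Each panel plots 1 gene, with CPM of protein-coding counts on the y axis and the 6 groups on the x axis, 1 point per library, and the open circle marking the library labelled cortex input replicate 1. Emx2 is lower in the 4 cortex IPs than in cortex input replicate 2, and all 9 genes are low in retina, with Fezf2 the highest of them there.

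The other patterning genes, Emx1 and Dmrta2, had higher values in the cortex IPs than in input, and neither passed the test. Emx1 stood at 4.66 CPM in input, 7.82 and 6.07 with Ythdf1 and 9.16 and 10.8 with Ythdf2. Its log2 values were 0.58 (SE 0.48, edgeR adjusted p = 0.601) with Ythdf1 and 1.096 (SE 0.49, adjusted p = 0.215) with Ythdf2. Dmrta2, a doublesex-related gene needed for medial cortex, stood at 9.34 CPM in input, 13.6 in both Ythdf1 IPs and 16.3 and 21.8 with Ythdf2, for log2 values of 0.54 (edgeR adjusted p = 0.636) and 1.03 (adjusted p = 0.245). The input value, from a single library, lay below all 4 IPs for both genes. How common this is over all genes is not given here.

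Eomes and the neuronal helix-loop-helix genes had lower values in the IPs, again without passing the test. Eomes was at 77.7 CPM in input, 45.6 and 28.6 with Ythdf1 and 44.2 and 68.9 with Ythdf2, with log2 values of −1.06 (SE 0.41, edgeR adjusted p = 0.188) and −0.46 (adjusted p = 0.612). Neurod2 was at 56.2 CPM in input, 23.6 and 16.5 with Ythdf1 and 28.7 and 18.0 with Ythdf2. It had the largest standard error of the 9, with log2 values of −1.48 (SE 0.63, edgeR adjusted p = 0.250) and −1.27 (SE 0.63, adjusted p = 0.274). Neurod6 was at 40.1 CPM in input and at 16.02 to 25.1 in the 4 IPs, with log2 values of −1.01 (SE 0.39, edgeR adjusted p = 0.199) and −0.68 (adjusted p = 0.356). For Eomes, Neurod2 and Neurod6 each IP lay below the single input library, and the share of all genes that do so is not given here.

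Of the deep-layer genes, Tbr1 and Fezf2 lay closest to input and Bcl11b had higher values with Ythdf2. Tbr1 stood at 62.1 CPM in input and 39.9 to 55.1 in the 4 IPs (log2 −0.32 and −0.39, edgeR adjusted p = 0.755 and 0.647). Fezf2 stood at 39.8 CPM in input and 32.3 to 51.8 in the IPs (log2 0.18 and 0.08, adjusted p = 0.899 and 0.953). Bcl11b stood at 34.1 CPM in input, 62.8 and 31.8 with Ythdf1 and 65.5 and 64.0 with Ythdf2 (log2 0.47 and 0.93, edgeR adjusted p = 0.642 and 0.237). Its Ythdf1 replicates fell on either side of the input, and without Ythdf1 IP replicate 1 its log2 value turned to −0.17. In counts, Neurod2 to Bcl11b went from 1.65 in input to 0.377 and 0.518 with Ythdf1 and 0.438 and 0.281 with Ythdf2.

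The median log2 value over the 9 genes was −0.32 with Ythdf1 and −0.39 with Ythdf2, against −0.01 and 0.06 over all 20278 genes. These values are relative to the bulk of genes. Scaled on total counts instead, the median gene in the Ythdf1 IPs moved by −1.38 on the log2 scale, and all 9 factors lay below 0, with Emx1, Dmrta2, Fezf2 and Bcl11b changing sign. Relative to that shifted median, Emx1, Dmrta2, Fezf2 and Bcl11b lay at 0.61, 0.53, 0.17 and 0.56 and Emx2 at −1.87. Relative to the median gene on log2(FPKM + 1), the same 4 lay below it, at −0.20, −0.28, −0.72 and −0.40, and Emx2 at −2.63. On log2(FPKM + 0.1) Fezf2 was at −0.10 and the other three at 0.30, 0.27 and 0.13, so the direction of these 4 genes depends on the scale. With all 12 libraries 5 of the 9 were above 0 with Ythdf1 and 6 with Ythdf2, and none was called by edgeR. Of all genes, 0.00542% and 0.0108% were called higher there and 0% lower. At an unadjusted p under 0.05 by edgeR were 0 of the 9 with Ythdf1, and 2884 of all 18458 genes. With Ythdf2 1 of the 9 was, and the share of all genes is not given here. In the fit on 11 libraries, 4 of the 9 were with Ythdf1 (Emx2, Eomes, Neurod2 and Neurod6, all lower), and 3433 of all 20278 genes. With Ythdf2, Emx2 (lower) and Emx1 (higher) were, and 4307 of all 20278 genes. These counts rest on the 1 cortex input library, so the genes are not independent of each other.

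**Figure D3:**
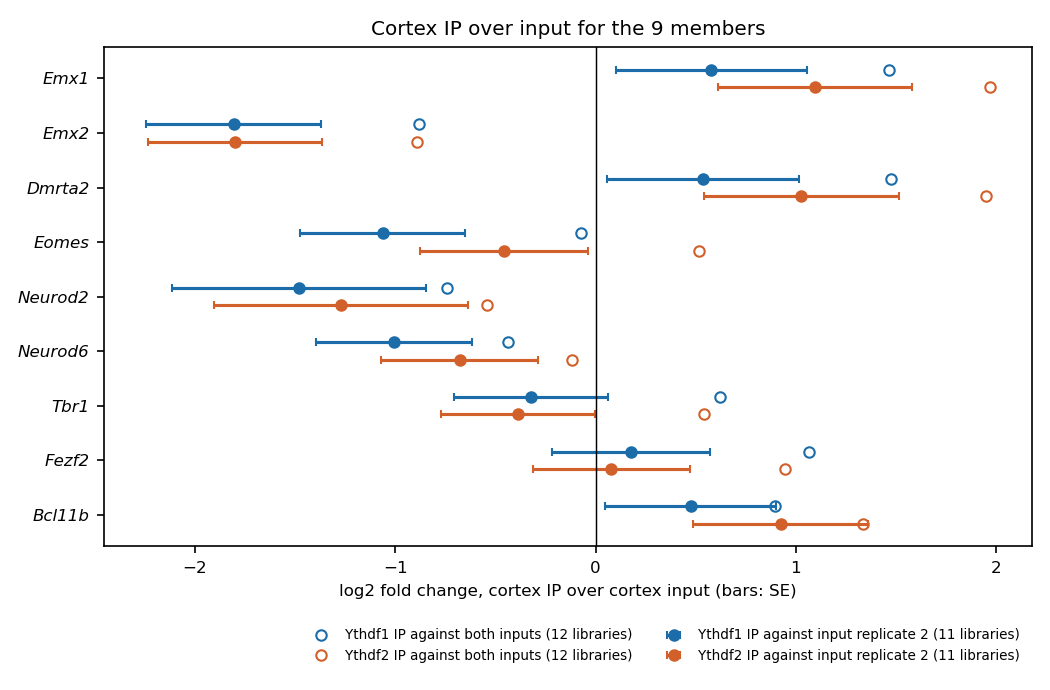
Points give the log2 fold change of each cortex IP over cortex input (x axis) for the 9 genes (y axis), with filled points and SE bars from the fit on 11 libraries and open points from the fit on all 12. Emx2 lies at −1.81 and −1.80 in the former and at −0.88 and −0.89 in the latter.

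Between the antibodies, no factor differed by the test in cortex. The log2 values of Ythdf1 IP over Ythdf2 IP lay between −0.61 for Eomes and 0.10 for Fezf2, with standard errors from 0.32 to 0.54, and Emx2 was at −0.01 (SE 0.37). None of the 9 was called by edgeR, by edgeR at an unadjusted p under 0.05, or by DESeq2, where 0.671% of all genes were called higher and 0.0345% lower by edgeR. At an unadjusted p under 0.05 by edgeR there were 1852 of all 20278 genes. In the fit of all 12 libraries 0% of genes were called in either direction. On log2(FPKM + 1) limma called 8 of the 9 lower in the Ythdf1 IPs, and 6 with a pseudocount of 0.1. On these scales 8048 and 5576 genes were called in either direction and the median over all genes lay at −0.41 and −1.01. The counts of 8 and 6 are therefore not read as a result about the 9. Protein-coding genes held 17.4% and 10.4% of counts with Ythdf1 and 22.4% and 38.6% with Ythdf2, and the part of that gap in the FPKM values was not tested.

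The values were next set beside transcript length, the motif and GC content. The longest coding transcripts of the 9 run from 1561 bases for Emx1 to 8111 for Bcl11b, around a median of 3198 over 14723 genes. Across these genes, the log2 value of IP over input had a Spearman correlation with length of 0.126 for Ythdf1 and 0.297 for Ythdf2, given as a description because the points share libraries. Emx2, at 2916 bases, belongs to the class of 2 to 4 kb, where the median gene lay at −0.12 with Ythdf1 and −0.07 with Ythdf2 and the 10th percentile at −1.49 and −1.45. Its own log2 values of −1.81 and −1.80 were below both, and 6% and 6.34% of all protein-coding genes lay at or under them. Dmrta2, nearly as long at 2922 bases and the densest of the 9 in GGACT, lay at the percentiles 72.4 and 81.3. Emx1, the shortest, lay at 73.6 and 82.8. Neither of these 2 genes passed the test. The 2 also differ from Emx2 in GC content, at 65.4% for Dmrta2 and 66.8% for Emx1 (percentiles 99.5 and 99.7) against 52.2% (59.4). Neurod2, with low IP values, was at 58.7% (91.1). The part of length, motif or GC content in the values of the 9 was not tested.

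**Figure D4:**
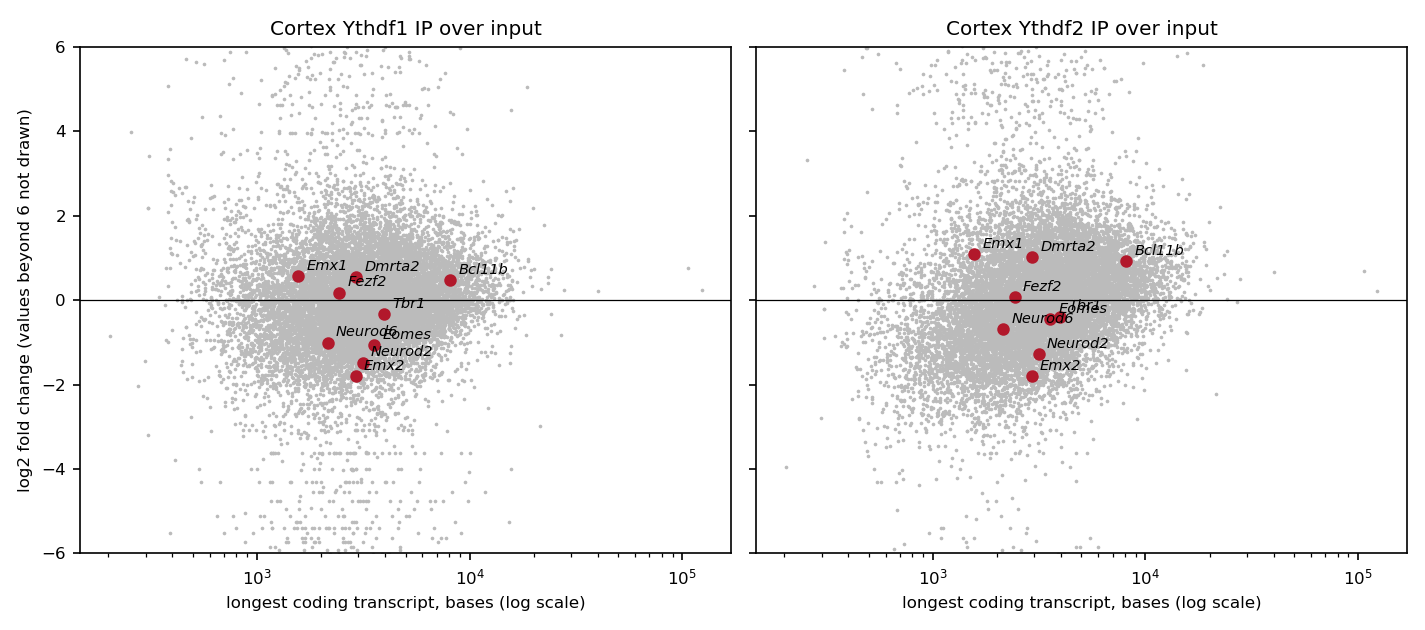
Each grey point is a protein-coding gene, with transcript length in bases on a log x axis and the log2 fold change of cortex IP over input on the y axis, for Ythdf1 (left) and Ythdf2 (right), and the 9 genes in red. Emx2 and Dmrta2 have nearly the same length, 2916 and 2922 bases, and lie at −1.81 and 0.54 on the left.

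All 9 factors were higher in cortex than in retina, in both IPs and in input. The call held for 9 of 9 in each of the 3 comparisons, where 15.2% of all genes were called higher in cortex with Ythdf1, 11.2% with Ythdf2 and 11.1% in input, and 13.1%, 10.1% and 8.82% lower. With all 12 libraries 6, 7 and 7 of the 9 were called, where 4.39%, 2.43% and 4.01% of genes were called higher and 4.4%, 3.14% and 3.51% lower. Dmrta2 was among those lost in the Ythdf1 IPs (adjusted p = 0.0518). Emx1, Emx2 and Neurod6 passed the filter on low counts only through cortex and so had to differ. Dmrta2 had 16 and 4 counts in the retina Ythdf1 IPs and 0 in the other retina libraries. The count of 9 is therefore a description. Blood, vessel and meninges markers moved the same way: 10 of 12 were called higher in cortex in each comparison, their summed level was 1343.94 to 4321.77 CPM of protein-coding counts in the 5 cortex libraries and 274.461 to 1283.28 in retina, and 4 to 7 of the 12 were at 0 in each retina library. Their part in the differences of the 9 factors was not tested. In bulk tissue, fewer cells of a type and less RNA per cell cannot be told apart. Emx1 and Neurod6 had 0 counts in all 6 retina libraries, and Emx2 had 3 counts in 1 retina input and 0 in the other 5. Against a floor of 3 counts per library, which was 0.110 to 0.179 CPM in retina, Emx1 was at least 58.0-fold, 56.7-fold and 39.2-fold higher in cortex in the Ythdf1 IPs, Ythdf2 IPs and input. Neurod6 was at least 166-fold, 143-fold and 337-fold higher, and Emx2 at least 223-fold and 152-fold higher in the Ythdf1 and Ythdf2 IPs.

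Tbr1 and Neurod2 were present in retina at a trace. Tbr1, which also marks a group of retinal ganglion cells, had 5 to 19 counts in the 6 retina libraries against 763 to 5065 in the 5 cortex libraries, and log2 values of 6.29, 6.74 and 7.51 in the Ythdf1 IPs, Ythdf2 IPs and input (SE 0.42 to 0.47). Neurod2 had 0 to 55 counts in retina against 269 to 4397, and log2 values of 3.49, 6.29 and 5.26 (SE 0.62 to 0.77). The 6.29 of the Ythdf2 IPs moved to 5.28 without retina Ythdf2 IP replicate 1, which had 0 counts, and to 12.81 without replicate 2, which had 10, and it stayed called. Eomes, known in retinal ganglion cells as well, had 48 to 162 counts in retina and log2 values of 2.64, 4.08 and 4.27 (SE 0.38 to 0.43). It was not called in any of these 3 comparisons with all 12 libraries, where the adjusted p was 0.152, 0.0802 and 0.111.

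Fezf2 was the highest of the 9 in retina and differed least between the tissues. It stood at 39.8 CPM in cortex input and at 13.0 and 9.65 in retina input, at 45.9 and 44.2 against 22.3 and 17.2 with Ythdf1, and at 32.3 and 51.8 against 6.62 and 7.09 with Ythdf2. Every cortex value exceeded every retina value, and the share of all genes that do so is not given here. The log2 values of cortex over retina were 1.19 (SE 0.33, edgeR adjusted p = 0.0128) in the Ythdf1 IPs, 2.62 (SE 0.34, adjusted p = 5.95e-05) in the Ythdf2 IPs and 1.81 (SE 0.38, adjusted p = 0.00333) in input. In the fit of all 12 they were 1.20, 2.599 and 0.92 and none was called (adjusted p = 0.316, 0.0872 and 0.475), and the first was also lost without retina Ythdf1 IP replicate 1 (edgeR adjusted p = 0.0610) or replicate 2 (0.145). With the cortex input library labelled replicate 1 in place of replicate 2, the value in input turned to −1.84.

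Within retina, 2 of the 9 were called higher in the Ythdf1 IPs than in input, where 13.7% of all genes were called higher and 13.4% lower. Bcl11b had 14 and 21 counts in input, 73 and 57 with Ythdf1 and 17 and 23 with Ythdf2, or 0.551 and 0.841, 2.68 and 2.46, and 0.978 and 1.37 CPM. Its Ythdf1 values lay above all other retina libraries, and the share of all genes that do so is not given here. The log2 value of Ythdf1 IP over input was 1.88 (SE 0.42, edgeR adjusted p = 0.00336), and 1.87 with all 12 libraries (adjusted p = 0.0510, not called), where 3.57% of all genes were called higher and 5.23% lower. It was called in each of 10 leave-one-out fits, at log2 values from 1.61 to 2.21, and was not called by limma on log2(FPKM + 1) or log2(FPKM + 0.1) (adjusted p = 0.957 and 0.239). Dmrta2 had 16 and 4 counts in the Ythdf1 IPs and 0 in the other 4 retina libraries. Its cortex counts were 221 to 2008 in each library of the fit on 11. The filter on low counts asks for as many libraries as the smallest group has, which is 1 in that fit and 2 in retina alone. Dmrta2 was filtered out of a fit of the retina libraries alone, which called 5412 genes and 1 of the 9, Bcl11b. The Dmrta2 call with the cortex libraries in the fit (not called with all 12 libraries, edgeR adjusted p = 0.169) is therefore not read as a change in retina.

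In the Ythdf2 IPs of retina, none of the 9 was called against input by edgeR or DESeq2, where edgeR called 5.82% of all genes higher and 7.64% lower, and 0.282% and 1.76% with all 12 libraries. By edgeR, 2 of the 9 had an unadjusted p under 0.05, Neurod2 and Fezf2, where 5450 of all 20278 genes did. The count of 2 is therefore not read as a result about the 9. Neurod2 had 55 and 19 counts in input and 0 and 10 in the Ythdf2 IPs (log2 −2.30, SE 0.80, edgeR adjusted p = 0.0764). Leaving out 1 library moved this value between −8.83, without Ythdf2 IP replicate 2, and −1.29, without replicate 1, at adjusted p from 0.0134 to 0.386. Fezf2 had a log2 value of −0.73 (SE 0.33, edgeR adjusted p = 0.172).

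Between the antibodies in retina, a comparison added after the values were seen, Fezf2 and Dmrta2 were called higher in the Ythdf1 IPs, where 2.14% of all genes were called higher and 3.88% lower. Fezf2 had 606 and 399 counts with Ythdf1, 115 and 119 with Ythdf2 and 331 and 241 in input. The Ythdf1 IPs lay above the inputs and the Ythdf2 IPs below them, with means of 19.7 CPM for Ythdf1, 11.3 for input and 6.85 for Ythdf2. How many of all genes show this order is not given here. The log2 value of Ythdf1 IP over Ythdf2 IP was 1.53 (SE 0.34, edgeR adjusted p = 0.0140), and 1.52 with all 12 libraries (adjusted p = 0.479, not called). It was lost without any 1 of the 4 retina IPs, at adjusted p from 0.0874 to 0.181 in edgeR. Dmrta2, at 16 and 4 counts in the Ythdf1 IPs and 0 in both Ythdf2 IPs, was again filtered out of a fit of retina alone. That fit called 1313 genes and 1 of the 9, Fezf2, and the Dmrta2 call is not read as a change. With all 12 libraries 0% of genes were called in either direction, and limma on FPKM called neither Fezf2 nor Dmrta2.

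**Figure D5:**
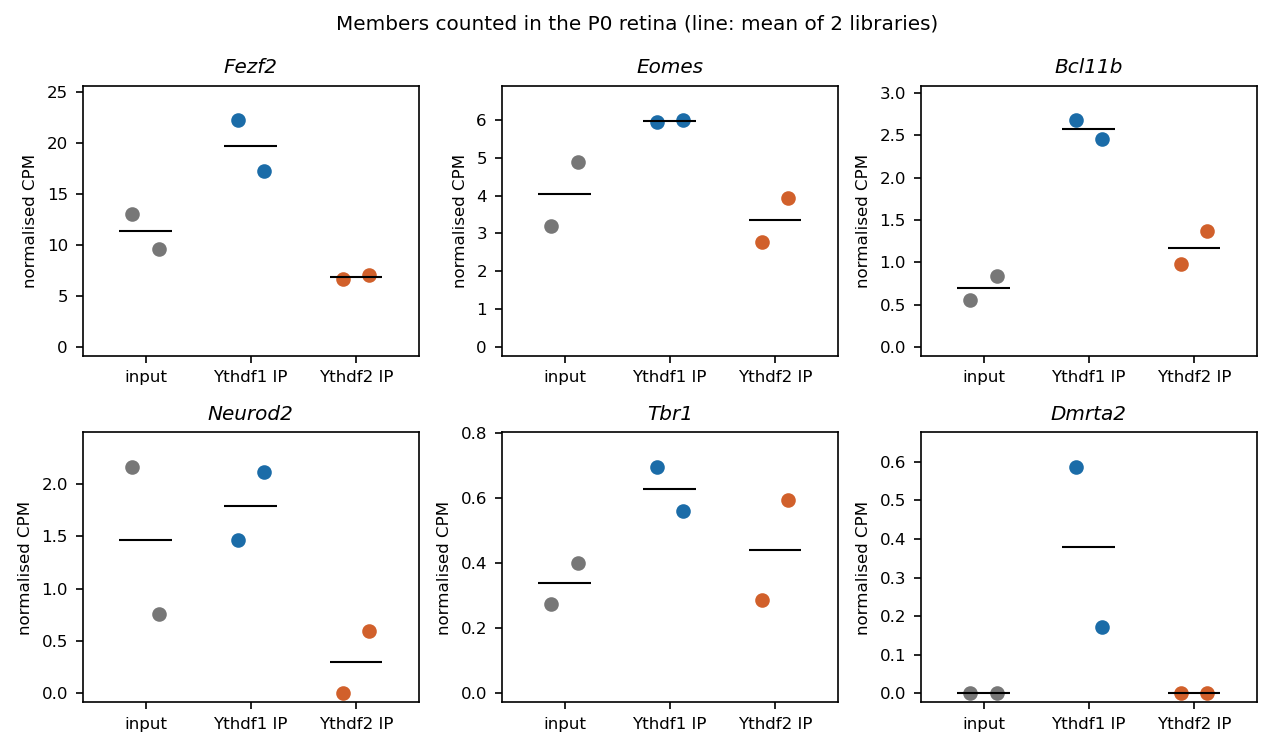
Panels give normalised CPM (y axis) of the 6 genes with most counts in retina, 1 point per library and a line at the mean of 2, for input, Ythdf1 IP and Ythdf2 IP (x axis). Fezf2 averages 11.3, 19.7 and 6.85 CPM in that order, and Dmrta2 has counts in the Ythdf1 IPs only.

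The difference between tissues in IP over input was tested as an interaction, also added after the values were seen. For Ythdf1, 1 of the 9 was called, Dmrta2, where 2.41% of all genes were called higher in cortex and 1.11% lower. Its retina side sets 16 and 4 counts against inputs at 0, so its fitted size depends on the prior count and is no measure of the difference. That call was lost with all 12 libraries (adjusted p = 0.468) and in 9 of 10 leave-one-out fits. Bcl11b was at −1.41 (SE 0.58, edgeR adjusted p = 0.194), Eomes at −1.63 (SE 0.55, adjusted p = 0.117) and Fezf2 at −0.62 (SE 0.50, adjusted p = 0.536). Dmrta2, Eomes and Bcl11b had an unadjusted p under 0.05 by edgeR, where 3997 of all 20278 genes did. For Ythdf2 none of the 9 was called by edgeR, where 0.473% of all genes were called higher and 0.444% lower. None of the 9 had an unadjusted p under 0.05 there, where 2831 of all 20278 genes did.

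A wider list of 50 transcription factors of dorsal telencephalon and cortical neurons, which leaves out the 9, was measured in the same comparisons. With Ythdf1, 1 of the 50 was called, Lmo4, a LIM-only cofactor, which was lower at a log2 value of −2.63, where 2.17% of all genes were called lower and 1.55% higher. With Ythdf2, 2 were called higher, Zbtb18 at 2.38 and Prdm8 at 1.89, both transcriptional repressors needed for neuronal development, and 2 lower, Lmo4 at −2.88 and Tox at −1.38, where 2.48% of all genes were called higher and 5% lower. The list's median was −0.03 with Ythdf1 and 0.12 with Ythdf2. With all 12 libraries none of these was called by edgeR (adjusted p = 0.162 for Lmo4 with Ythdf1, and 0.0807 for Lmo4, 0.578 for Tox, 0.733 for Prdm8 and 0.172 for Zbtb18 with Ythdf2). Against retina, 24 of the 50 were higher and 8 lower in the Ythdf1 IPs, 29 and 8 in the Ythdf2 IPs, and 28 and 7 in input, where 15.2% and 13.1%, 11.2% and 10.1%, and 11.1% and 8.82% of all genes were. The fit of all 12 libraries gave 16 and 4, 13 and 4, and 9 and 4. Those with the largest fall were Rorb, at −5.64, −6.38 and −6.41, and Neurod4, at −4.60, −4.99 and −5.09. Dmrt3 and Dmrta1, doublesex-related genes of the same family as Dmrta2, were among the 3 with the largest rise in each of the 3 comparisons. They had at most 5 counts in any retina library, so no size is given. Within retina, 9 of the 50 were higher and 8 lower in the Ythdf1 IPs than in input, where 13.7% and 13.4% of all genes were, and 5 and 3 in the Ythdf2 IPs, where 5.82% and 7.64% were. The fit of all 12 libraries gave 2 and 1 with Ythdf1.

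Over the 11 libraries, the protein-coding genes whose log profile was most like the mean profile of the 9, among 5828 with at least 5 CPM in the cortex IPs, included Gja1, Dmrt3, Masp1 and Chd3, with Pearson coefficients of 0.994, 0.992, 0.992 and 0.989. The cortex and retina libraries form 2 separate clusters, and these coefficients mainly describe that split.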

How the data were processed

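Read counts per gene and FPKM were deposited by the authors. Reads were aligned with STAR 2.5 and counted with HTSeq on GRCm38, per the submitters' processing notes; the sources used here do not give the annotation, strand setting or HTSeq version, or the gene length and total behind the FPKM. Gene IDs were matched to GENCODE M21 (52403 of 52550).

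Counts were tested with edgeR 4.0.16 (quasi-likelihood test, filterByExpr with a minimum count of 10, TMM, robust, 1 mean per group, 5 residual degrees of freedom) on 11 libraries, with Benjamini-Hochberg adjustment over 20278 genes and a threshold of 0.05. DESeq2 1.42.0, limma 3.58.1 on log2(FPKM + 1) and log2(FPKM + 0.1), other scalings and filters, all 12 libraries and a replicate block were alternatives. So was leaving out each library in turn, except cortex input replicate 2, the only library of its group in the main fit. The test was tested on simulated data, with 200 genes changed in the cortex Ythdf1 IPs. It recovered 62 of 100 genes changed by 2 on the log2 scale and 98 of 100 changed by 3, with 6 false calls. Smaller changes were not simulated, so a factor that did not pass may still differ. Normalised CPM use TMM-scaled totals. The cortex input library labelled replicate 1 was left out of this fit because its profile went against its label. Named genes were all 9 factors, up to 3 called genes of the wider list with the largest rise and fall per comparison (given where the counts allow a size), and the 5 genes most like the 9, of which 1 is not reported here. The genes and lists were chosen with earlier results of these data known. Sequences come from GENCODE M21 transcripts.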

Additional observations from a re-analysis of the deposited data

Results flagged for a closer look

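The difference between tissues in Ythdf1 IP over input was called for Dmrta2, at −6.31 on the log2 scale (edgeR adjusted p = 0.0460). Its retina counts were 0 in both inputs and 16 and 4 with Ythdf1, and a fit of the retina libraries alone filtered it out. Neither the size nor the call is therefore read as a difference between the tissues. Its cortex counts were 731 in the input used and 486 and 221 with Ythdf1. The call was lost with all 12 libraries (adjusted p = 0.468) and in 9 of 10 leave-one-out fits, and the value turned to 5.18 with cortex input replicate 1 in place of replicate 2.

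The library labelled cortex input replicate 1, which the comparisons leave out, held mature brain markers at a sum of 23872.5 CPM of protein-coding counts, with all 14 markers above 0, against 200.859 in the other cortex input. In it the 9 factors had 0 to 126 counts.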

How the results depend on the processing

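The comparisons are named here by tissue and antibody, so that "cortex Ythdf1" stands for cortex Ythdf1 IP against input. Over 2-library groups, the limits are the single cortex input library, low retina counts, and a spread that 1 library can move. Of the alternative values for single genes, 1321 kept direction and side of the threshold, 59 lost a call, 47 gained one and 52 changed direction. The cause was not tested for any of these.

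In the fits given above, 755 genes were called for cortex Ythdf1, 1517 for cortex Ythdf2, 143 between the antibodies in cortex, 5749, 4316 and 4031 for cortex against retina (Ythdf1, Ythdf2, input), 5505 for retina Ythdf1, 2730 for retina Ythdf2 and 1220 between the antibodies in retina.

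With all 12 libraries the genes called numbered 1, 2, 0, 1623, 1029, 1388, 1625, 377 and 0 in that order. None of the 9 factors was called for cortex Ythdf1, cortex Ythdf2, retina Ythdf1, retina antibodies or the Ythdf1 interaction (0 each). Tbr1 turned to 0.62 for cortex Ythdf1 and 0.54 for cortex Ythdf2, Eomes to 0.52 for cortex Ythdf2, and Emx2 to 0.013 between antibodies in cortex.

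With cortex input replicate 1 in place of replicate 2, 5011 and 5621 genes and 7 and 7 factors were called for cortex Ythdf1 and Ythdf2, and 4 and 4 factors in the interactions. Emx2, Eomes, Neurod2, Neurod6 and Tbr1 turned to 2.13, 5.24, 0.76, 0.45 and 4.07 for cortex Ythdf1 and to 2.21, 5.91, 1.03, 0.85 and 4.08 for cortex Ythdf2. Eomes and Fezf2 turned to −2.17 and −1.84 for input in cortex against retina, Dmrta2 to 5.18 in the Ythdf1 interaction, and Tbr1 to −0.0071 between antibodies in cortex.

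Scaled on library totals, 4408, 486, 2738, 8873, 8860, 3204, 1128 and 516 genes were called (cortex Ythdf1, cortex Ythdf2, cortex antibodies, Ythdf2 and input in cortex against retina, retina Ythdf1, retina Ythdf2, retina antibodies). The factors called numbered 4 for cortex Ythdf1, 0 for cortex Ythdf2, 3 between cortex antibodies, 0 between retina antibodies and 3 in the Ythdf1 interaction. Emx1, Dmrta2, Fezf2 and Bcl11b turned to −0.77, −0.85, −1.20 and −0.81 for cortex Ythdf1, and Tbr1 and Fezf2 to −1.25 and −1.25 between cortex antibodies.

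With limma on log2(FPKM + 1), 7874, 3392, 8048, 1669, 11852, 10244, 1901, 1131 and 163 genes were called (all 9 comparisons in the order above), and 5, 2, 8, 0 and 0 factors for cortex Ythdf1, cortex Ythdf2, cortex antibodies, retina Ythdf1 and retina antibodies. Emx1, Dmrta2, Fezf2 and Bcl11b turned to −0.64, −0.72, −1.16 and −0.85 for cortex Ythdf1, Fezf2 to −0.12 for cortex Ythdf2, and Tbr1 and Fezf2 to −1.07 and −1.05 between cortex antibodies. With log2(FPKM + 0.1), 6374, 5576, 11677, 10366, 2808, 1320 and 419 genes were called (cortex Ythdf1, cortex antibodies, Ythdf2 and input in cortex against retina, and the 3 retina comparisons), and 5, 6, 0 and 0 factors for cortex Ythdf1, cortex antibodies, retina Ythdf1 and retina antibodies. The same 4 factors turned to −0.83, −0.85, −1.22 and −0.997 for cortex Ythdf1, Fezf2 to −0.13 for cortex Ythdf2, and Tbr1 and Fezf2 to −1.15 and −1.10 between cortex antibodies.

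DESeq2 called 1477, 2385, 368 and 2083 genes for cortex Ythdf1, cortex Ythdf2, cortex antibodies and retina antibodies. Without a filter, 1353, 2126, 3181, 393 and 2006 genes were called for cortex Ythdf1, cortex Ythdf2, retina Ythdf2, cortex antibodies and retina antibodies. The factors called there numbered 2, 2, 1 and 2 for cortex Ythdf1, cortex Ythdf2, retina Ythdf2 and the Ythdf1 interaction. With protein-coding genes alone, 86 genes were called between cortex antibodies, Emx2 turned to 0.024 there, and 0 factors were called in the Ythdf1 interaction. A fit of cortex alone called 1004 genes and 2 factors for cortex Ythdf1. The fit of retina alone called 5412 genes and 1 factor for retina Ythdf1, and 1313 genes and 1 factor for retina antibodies. For the interactions, the number of all genes called is not given in this section.

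Leaving out 1 library at a time gave 178 to 1642 genes and 0 to 1 factors for cortex Ythdf1, 542 to 2762 and 0 to 1 for cortex Ythdf2, 16 to 317 and 0 to 0 between cortex antibodies, 2817 to 7084 and 8 to 9 for Ythdf1 in cortex against retina, 2183 to 5635 and 9 to 9 for Ythdf2, 3354 to 5493 and 9 to 9 for input, 2960 to 5702 and 2 to 3 for retina Ythdf1, 873 to 3481 and 0 to 1 for retina Ythdf2, and 52 to 2580 and 0 to 3 between retina antibodies, with 0 to 1 and 0 to 0 factors in the Ythdf1 and Ythdf2 interactions. Ranges that crossed 0 were −0.17 to 0.88 for Bcl11b in cortex Ythdf1, −0.29 to 0.38 for Fezf2 in cortex Ythdf2, −0.26 to 0.11 for Emx2, −0.20 to 0.49 for Fezf2, −0.60 to 0.17 for Neurod2 and −0.14 to 0.32 for Tbr1 between cortex antibodies, −0.29 to 1.22 for Neurod2 in retina Ythdf1, and −0.55 to 0.064 for Eomes and −0.23 to 0.81 for Tbr1 in retina Ythdf2. Cortex input replicate 2 was not among the libraries left out.

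Deviations of same-numbered libraries correlated at −0.0313 to 0.0582 over 18458 genes, with the library labelled cortex input replicate 1 included. With 2 libraries per group, these correlations do not settle whether the replicate numbers pair the samples. With the replicate number as a block, 450, 868 and 2510 genes were called for cortex Ythdf1, cortex Ythdf2 and input in cortex against retina, and 0 factors for cortex Ythdf1. Emx2 was at −1.69 (edgeR adjusted p = 0.0525) and −1.66 (0.0428) in the cortex IPs, and Fezf2 in cortex against retina at 0.93 (0.104) for Ythdf1 and 1.39 (0.115) for input.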
